A study of Mus musculus with 8 samples.

Results

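The genotype by growth interaction asks of each gene whether the difference between 2 mouse embryonic fibroblast (MEF) lines, one without Keap1 and one wild type (WT), was the same in a tumour as in a culture dish. It is the difference of differences (Keap1 null allograft minus WT allograft) minus (Keap1 null dish minus WT dish), on the log2 of the array signal after each array's 75th percentile was subtracted. All 8 of the 8 arrays of the series enter it. A higher interaction means that Keap1 null exceeded WT by more, or fell short of it by less, in allograft than in dish. Of 22922 genes and unnamed transcripts that could be tested, 19359 were well above background, by the scanner software's own flag, on both arrays of at least 1 dish group. These 19359, of which 13574 carry a gene symbol, are called dish-detected and are the ones described. Transcripts seen only in tumours, where host cells are present, are thus left out of the calls described. Genes near background in dish and far higher in tumours still pass, among them the macrophage genes Fcrls and Csf1r.

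Gene expression was measured on 1-colour (Cy3) mouse arrays, with 2 arrays in each of 4 groups, all of them from MEFs that the labels mark TR, an abbreviation they do not spell out. WT TR MEFs grown in dishes and Keap1-/- TR MEFs grown in dishes are the dish groups. For the allograft groups, cells were injected, 10000000 of WT or 3000000 of Keap1 null, into nude (nu/nu) mice, which lack a thymus and most T cells but keep other immune cells, and tumours were collected at 100 to 150 mm3. Each labelling started from 500 ng of total RNA. The labels name 1 line per genotype, so genotype and line cannot be told apart, and cell number at injection goes with genotype. They do not say whether replicates are separate cultures or animals, so p-values measure only the spread between these arrays, which may be technical. The ages of the mice are not given in the sources used here.

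KEAP1 is the adaptor that hands the transcription factor NRF2 (gene Nfe2l2) to a ubiquitin ligase, so that NRF2 is destroyed in unstressed cells. Loss of KEAP1 stabilises NRF2, which raises genes of glutathione synthesis, detoxification and NADPH supply. ATF4, the factor of the amino acid and integrated stress response, meets NRF2 at several genes of cystine import and glutathione turnover. An interaction separates a genotype difference that is present wherever the cells grow from one that depends on where they grow.

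The 75th percentile of the processed signal lay between 1084 and 1546 on the 8 arrays, and 60.6% to 64.5% of probes were well above background in the dish groups, and 69.7% to 74.7% in the allograft groups. No spot was saturated. Replicate 1 of every group lay on 1 slide and replicate 2 on the other, so slide does not differ between groups, but each group kept its position on both slides, so position and group cannot be told apart. Of 16 fibroblast and pericyte markers, 14 were well above background on both WT dish arrays, 15 on both Keap1 null dish arrays and all 16 on each allograft array. The flag alone is no check of the MEF label. On each WT dish array 8 of 12 skeletal muscle and 9 of 14 endothelial markers carried it too. In bulk samples of this kind, fewer cells of a type and less RNA per cell cannot be told apart.

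The interaction was widespread. By limma's moderated test with a Benjamini-Hochberg adjusted p under 0.05, 6397 dish-detected targets were called, 33% of those tested. Of these, 3156 were higher (16.3% of those tested) and 3241 lower (16.7%). The median interaction over all dish-detected targets was 0.052 on the log2 scale with a median standard error of 0.19. A difference of at least 2-fold between the 2 genotype ratios was reached by 3644 of the calls, of at least 4-fold by 1353 and of at least 16-fold by 234. The split of higher against lower calls depended on how arrays were scaled, with 3494 higher and 2397 lower when array medians were subtracted in place of 75th percentiles, and 963 higher and 3358 lower on the unscaled deposited intensities. These scalings moved the median interaction to 0.21 and -0.30. The fit took no account of replicate number, and with it as a block 8101 targets were called (41.8%). Without the Keap1 null dish replicate 1 array, 1953 targets were higher, and without replicate 2 of that group 1959.

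In the same fit, 23.7% of dish-detected targets differed between the lines in dish and 41.6% in allograft. Called targets were sorted by whether the difference between the lines reached 2-fold in each setting. In 1993 of the 6397 it did so in allograft alone (905 higher, 1088 lower), and in 645 in dish alone (157 higher, 488 lower). In 273 it reached 2-fold in both settings with opposite sign, 58 of them higher and 215 lower. In 277 the lines differed the same way in both settings and by more in allograft, in 116 by more in dish, and in 3093 neither difference reached 2-fold. Of the 19359 targets, 17954 were well above background in both dish groups and 1405 in 1 dish group only. A target detected in 1 dish group only passed the filter through the group in which it is high, and over the 17954 alone the calls came to 3006 higher and 2829 lower, with 185 of turned sign.

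**Figure D1:**
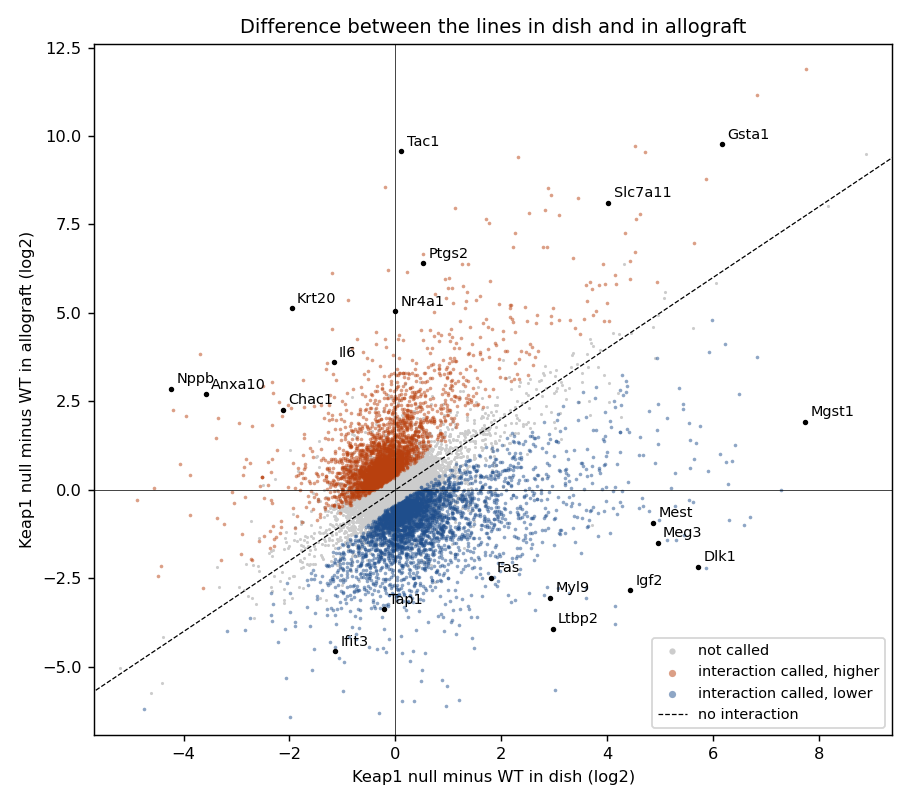
Difference between the lines (Keap1 null minus WT, log2) in dish (x axis) and in allograft (y axis) for the dish-detected targets, each point 1 target. Targets far from the diagonal have a large interaction, and the upper left and lower right corners hold the called targets whose difference turned sign, 58 above and 215 below the diagonal.

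Read the other way, the same interaction compares how far each line moved from dish to allograft. Growth itself was called in 66% of dish-detected targets in WT and in 62.4% in Keap1 null. This sorting by growth response was chosen after the values had been seen, and takes at least 2-fold as a move. The largest class in each direction was under 2-fold in both lines, with 1254 higher targets (39.7% of the higher) and 884 lower targets (27.3% of the lower). Among the 3156 higher targets, 843 were lower in allograft than in dish in WT and under 2-fold in Keap1 null, 604 were higher in allograft in Keap1 null and under 2-fold in WT, and 110 went down in WT and up in Keap1 null. Among the 3241 lower targets, 788 were higher in allograft in WT alone, 699 were lower in allograft in Keap1 null alone, 609 were higher in both, and 160 went up in WT and down in Keap1 null. WT moved farther than Keap1 null in 1820 of the higher and 1841 of the lower targets, and Keap1 null farther in 1336 and 1400.

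Keap1, the targeted gene, had signals of 3.32 and 2.99 in WT dish, 2.37 and 2.22 in Keap1 null dish, 2.85 and 2.46 in WT allograft and 1.00 and 0.92 in Keap1 null allograft. All 4 Keap1 null arrays lay below all 4 WT arrays, although still well above background, and the sources used here do not place the probe relative to the deletion. Its interaction was -0.83 ± 0.25 (SE; adjusted p = 0.0475, n = 2 arrays per group), from a difference of -0.86 in dish and -1.69 in allograft. Nfe2l2 itself stood at 3.44 and 3.59 in WT dish, 3.64 and 3.52 in Keap1 null dish, 3.44 and 3.56 in WT allograft and 4.09 and 4.12 in Keap1 null allograft. Only the Keap1 null allograft arrays stood apart. The Nfe2l2 interaction was 0.54 ± 0.14 (adjusted p = 0.0356). Both calls are close to the threshold: that of Keap1 was lost in 8 of 19 alternative analyses and that of Nfe2l2 in 11 of 19. Leaving out WT dish replicate 1 or WT allograft replicate 2 kept the Keap1 call, and the adjusted p reached 0.139 without Keap1 null dish replicate 1. Nfe2l2 kept its call only without WT dish replicate 1 among the single arrays left out, and its adjusted p reached 0.129 without Keap1 null dish replicate 2.

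The largest higher interaction among genes well above background on all 8 arrays was that of Tac1, the precursor of the neuropeptide substance P. It read -3.22 and -3.13 in WT dish, -3.11 and -3.01 in Keap1 null dish, -4.08 and -4.14 in WT allograft and 5.57 and 5.36 in Keap1 null allograft. The 3 other groups lay within about the same low range and the Keap1 null allografts far above them. The ratio of Keap1 null to WT was 706 times larger in allograft than in dish (interaction 9.46 ± 0.15, adjusted p = 4.4e-05). Ptpn5, a tyrosine phosphatase of striatal neurons, read -4.06 and -4.14 in WT dish, -2.98 and -2.96 in Keap1 null dish, -5.81 and -5.47 in WT allograft and 2.35 and 2.28 in Keap1 null allograft. Here the WT line was lower in allograft than in dish while the null line was higher, giving 6.83 ± 0.18. Akr1c18, an enzyme that inactivates progesterone, read 2.55 and 2.43 in WT dish, 2.37 and 2.34 in Keap1 null dish, -1.49 and -1.01 in WT allograft and 4.91 and 5.01 in Keap1 null allograft. The lines were level in dish and differed 74-fold in allograft, for an interaction of 6.34 ± 0.24. Tnfsf11, which encodes the osteoclast-inducing ligand RANKL, had an interaction of 6.26 ± 0.20, Syt7, a calcium sensor of exocytosis, one of 6.15 ± 0.15 and Crisp1, a secreted protein of the epididymis, one of 5.95 ± 0.13. In all 3 the dish difference was under 2-fold and the allograft difference at least 41.2-fold.

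In 4 of the 10 largest the Keap1 null line was at least 2-fold below WT in dish and at least 2-fold above it in allograft. Nppb, which encodes B-type natriuretic peptide, read 0.67 and 0.48 in WT dish, -3.66 and -3.67 in Keap1 null dish, -2.42 and -2.76 in WT allograft and 0.14 and 0.40 in Keap1 null allograft. Null arrays lay 18.9-fold below WT in dish and 7.24-fold above WT in allograft, and the interaction was 7.10 ± 0.22 (adjusted p = 6.55e-05). Cldn3, a claudin of epithelial tight junctions, read 0.29 and -0.007 in WT dish, -3.80 and -3.85 in Keap1 null dish, -1.77 and -2.22 in WT allograft and 0.19 and 0.031 in Keap1 null allograft. Its 2 WT dish arrays and 2 null allograft arrays overlapped, as the high groups, against the other 2 groups (interaction 6.06 ± 0.26). The epithelial keratin Krt20 (7.10 ± 0.46) and the annexin Anxa10 (6.29 ± 0.24) had the same shape, as did the chloride channel gene Cftr (5.75 ± 0.22). Anxa10 differed by -5.64 on the log2 scale between WT allograft and WT dish, against a difference of 0.66 in the null line.

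Genes below background in at least 1 group have only a lower bound, which holds for the probe read for each gene. Against the dimmest detectable signal, the ratio of Keap1 null to WT was at least 156-fold larger in allograft than in dish for Atp13a4, a cation transporter, at least 43.1-fold for Xirp2, a striated muscle protein, and at least 38.8-fold for the keratin Krt12. The adhesion gene Igsf11 was larger by at least 32.7-fold and Hkdc1, a hexokinase family member, by at least 31.4-fold. On the log2 scale, second probes fell short of the bound for Xirp2 (4.89 against 5.43) and Igsf11 (4.88 against 5.03). In Xirp2 the null allograft arrays differed widely, at -0.18 and -2.86, and skeletal muscle markers also varied between these arrays, as given with the marker lists.

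The largest lower interaction among genes well above background on all 8 arrays was that of Dlk1. This imprinted gene encodes a transmembrane protein of the Notch ligand family. It read -3.25 and -3.54 in WT dish, 2.33 and 2.32 in Keap1 null dish, -0.71 and -0.55 in WT allograft and -2.56 and -3.04 in Keap1 null allograft. It was high in Keap1 null dish alone, 52.7-fold above WT there, and 4.5-fold below WT in allograft (interaction -7.89 ± 0.27, adjusted p = 7.21e-05). Lrrc17, a secreted leucine-rich repeat protein, read -5.49 and -5.80 in WT dish, -1.49 and -1.51 in Keap1 null dish, 2.59 and 3.11 in WT allograft and -0.66 and -0.21 in Keap1 null allograft. WT allografts were the highest group, and the genotype ratio turned from 17.7-fold higher in null to 9.73-fold lower (interaction -7.43 ± 0.33). Ltbp2, a matrix protein of elastic fibres, read -3.53 and -3.70 in WT dish, -0.63 and -0.65 in Keap1 null dish, 2.77 and 2.66 in WT allograft and -1.19 and -1.22 in Keap1 null allograft. WT rose by 6.33 from dish to allograft while the null line differed by -0.56, and no groups overlapped. The interaction of Ltbp2 was -6.89 ± 0.14.

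Ptn, the growth factor pleiotrophin (-6.66 ± 0.34), Meg3, a maternally expressed long noncoding RNA beside Dlk1 (-6.44 ± 0.33), and the metalloprotease Adamts8 (-6.18 ± 0.28) also turned sign. For Meg3 the null line was at the same level in both settings (0.0074) and WT rose by 6.45. Celf5, an RNA-binding protein (-6.25 ± 0.16), and the epithelial keratin Krt7 (-6.01 ± 0.26) differed between the lines by under 2-fold in dish, and by -5.37 and -6.31 in allograft. Fcrls, a gene of macrophages and microglia, read -5.83 and -5.48 in WT dish, -5.96 and -5.09 in Keap1 null dish, 1.28 and 1.50 in WT allograft and -4.93 and -4.24 in Keap1 null allograft. Only the WT allografts were high (interaction -6.11 ± 0.50), the group in which macrophage markers were also highest. The dish values of Fcrls lay near the lowest signal counted as well above background, -6.42 to -6.90 on the dish arrays. Xlr4b, of an X-linked lymphocyte-regulated family, had an interaction of -7.57 ± 0.16. Members of this family are near-identical, so its probes may read more than 1 of them, and its second probe gave -1.30.

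Among lower genes with a group below background, the ratio of Keap1 null to WT was smaller in allograft than in dish by at least 325-fold for Ogn (osteoglycin, a small matrix proteoglycan), at least 125-fold for Xlr3c, at least 103-fold for Nrep, at least 82.4-fold for the endothelin receptor Ednra and at least 57.6-fold for the growth factor Igf2. In all 5 the group below background was WT dish, so they passed the dish filter only through Keap1 null dish, where they were higher. A lower interaction could be bounded only where the dim group was WT dish or Keap1 null allograft, so this is partly set by the rule. Of the 135 named genes, 52 had several tested probes. In each of these another probe was called in the same direction and none in the opposite one. The sizes could differ: on the log2 scale, second probes fell short of the bound for Ednra (-2.93 against -6.36) and Igf2 (-5.58 against -5.85).

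**Figure D2:**
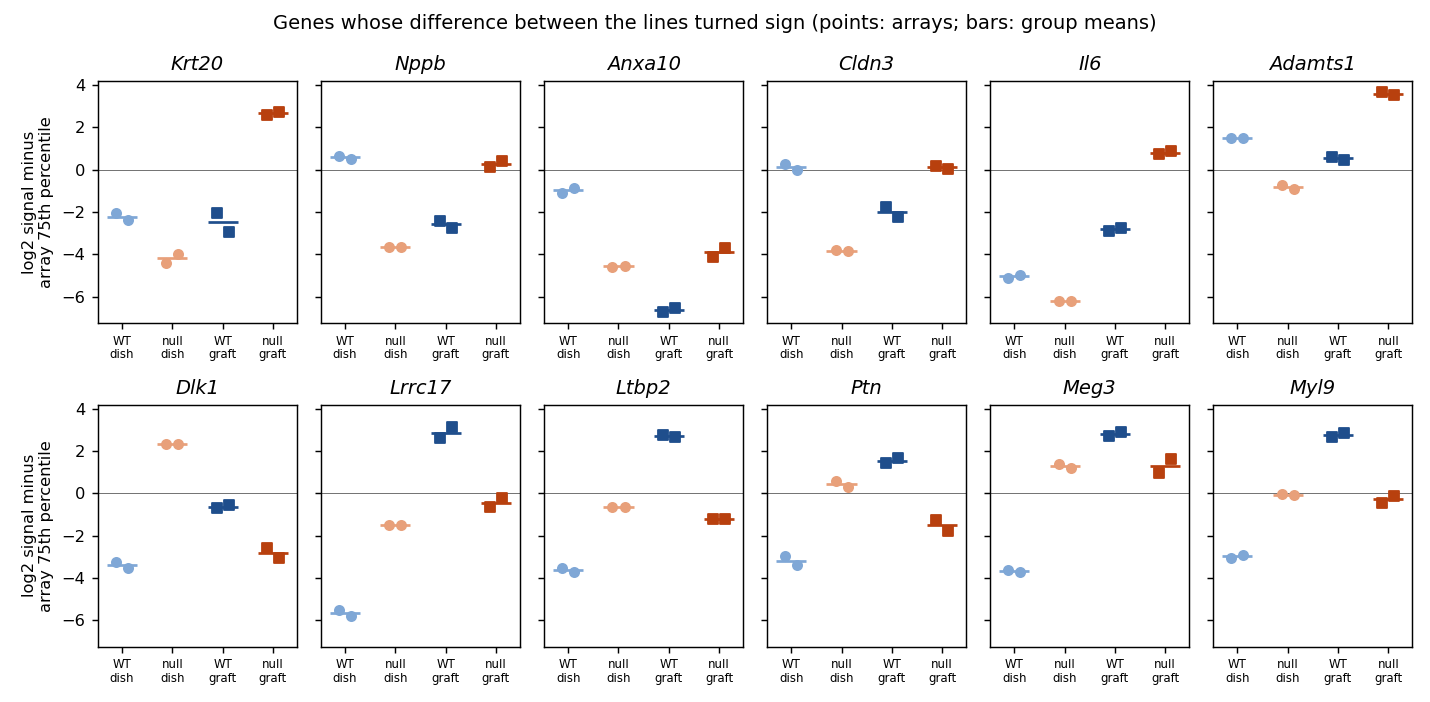
Signal of 12 genes whose difference between the lines turned sign, on each array (points; bars are group means of 2 arrays), as log2 signal minus the array's 75th percentile. In the upper row the null line is below WT in dish and above it in allograft, as for Nppb, with ratios of 18.9-fold and 7.24-fold, and in the lower row the order is the opposite, as for Dlk1.

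Among NRF2 targets, the difference between the lines was on the whole larger in tumours. For this and the lists below, the shares among all dish-detected targets were 33% called, 16.3% called higher and 16.7% called lower. Of 44 dish-detected members of a list of glutathione, detoxification and iron genes, 28 were higher, 9 lower and 7 not called, with a median interaction of 1.01 against 0.052 over all targets. The median difference between the lines was 0.96 in dish and 1.88 in allograft. The median growth difference was -0.40 in WT and 0.68 in Keap1 null. On the unscaled intensities 15 members were higher and 10 lower, with a median of 0.65, and without Keap1 null dish replicate 1 the lower count was 5.

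Slc7a11, the cystine importer that feeds glutathione synthesis, read -4.29 and -4.22 in WT dish, -0.30 and -0.17 in Keap1 null dish, -5.34 and -5.64 in WT allograft and 2.47 and 2.79 in Keap1 null allograft. The null line exceeded WT in both settings without overlap, 16.2-fold in dish and 278-fold in allograft, and the interaction was 4.10 ± 0.22 (adjusted p = 0.000152). Its change with growth was -1.23 in WT and 2.86 in Keap1 null. Both subunits of the enzyme that makes the first glutathione intermediate followed, Gclc with 2.27 ± 0.19 and Gclm with 2.20 ± 0.15. Glutathione reductase (Gsr) was near level between the lines in dish (0.25) and higher in the null line in allograft (2.10).

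The glutathione transferase Gsta1 read -4.94 and -5.09 in WT dish, 1.19 and 1.11 in Keap1 null dish, -6.80 and -6.90 in WT allograft and 3.08 and 2.76 in Keap1 null allograft. The null line was higher in both settings and by more in allograft (interaction 3.61 ± 0.19). Its close relative Gsta2, below background in WT allografts, gave a ratio at least 5.35-fold larger in allograft than in dish. Probes for Gsta1 and Gsta2 may read each other's transcripts, so the pair is not independent. The quinone reductase Nqo1, a standard NRF2 readout, differed by 3.60 in dish and 5.78 in allograft (interaction 2.18 ± 0.14), whereas Hmox1, heme oxygenase, was not called (0.30 ± 0.17, adjusted p = 0.237).

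Some NRF2 list members ran the other way. Mgst1, a microsomal glutathione transferase, read -6.23 and -6.33 in WT dish, 1.55 and 1.37 in Keap1 null dish, 1.17 and 1.21 in WT allograft and 3.21 and 3.01 in Keap1 null allograft. WT dish alone was low, so the 214-fold difference between the lines in dish shrank to 3.8-fold in allograft (interaction -5.82 ± 0.16, adjusted p = 6.22e-05). Aldehyde oxidase Aox1 (-2.53 ± 0.15) and Gstm2 (-2.30 ± 0.13) were also lower. Both and the other list members quoted with their interaction alone were picked after their values had been seen.

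In the list of pentose phosphate and NADPH genes, 5 of 12 were higher, 1 lower (Tigar, -0.76 ± 0.17) and 6 not called, with a median of 0.36. The oxidative enzymes led. Pgd, phosphogluconate dehydrogenase, read 4.69 and 4.61 in WT dish, 5.37 and 5.39 in Keap1 null dish, 3.36 and 3.40 in WT allograft and 5.48 and 5.07 in Keap1 null allograft. WT fell by 1.27 from dish to allograft and the null line differed by -0.10 (interaction 1.17 ± 0.20). G6pdx, the entry enzyme of the pathway, had 1.01 ± 0.14, transaldolase Taldo1 0.94 ± 0.16 and Ppat, the first enzyme of purine synthesis, 1.07 ± 0.15. The lower call was lost without WT dish replicate 2, Keap1 null dish replicate 1, WT allograft replicate 2 or Keap1 null allograft replicate 1, and 2 were lower without Keap1 null allograft replicate 2. None of the 5 higher calls remained on the unscaled intensities, where the median was 0.0010.

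Genes of the amino acid response were in the median lower in Keap1 null than in WT in dish and higher in allograft. Of 28 dish-detected ATF4 targets and amino acid genes, 24 were higher and none lower, and the 4 not called were Sesn2, Ddit4, Aldh18a1 and Vldlr. The median interaction was 1.89. The median difference between the lines was -0.90 in dish and 1.40 in allograft, and 7 members turned sign with at least 2-fold on each side. The median change with growth was -1.38 in WT and 0.30 in Keap1 null. On the unscaled intensities 20 of 28 were higher and none lower.

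Promoter sequences are given for Chac1 and Trib3 of this list, and for Slc7a11 of the NRF2 list, because the element that ATF4 binds with C/EBP proteins has a known core that can be looked for there. The motif searched was TGATGNAA on both strands, in the 300 bases from 250 before to 50 after the start in RefSeq (GRCm38.p6). It was found for 13 of 34 members of the ATF4 list and the tRNA list that have a promoter in the table (38.2%), against 4.51% of all 27025 genes there and 2.85% of dish-detected genes. The ATF4 list was drawn up as ATF4 targets and amino acid genes, so this share does not bear on the interaction. Among dish-detected genes the motif occurred in 3.57% of those called higher, 2.85% of those called lower and 2.65% of those not called. Capitals mark matches of the motif or its reverse complement, and a match is a description of the letters, not a site of binding or a cause. Chac1 is shown from chr2:119350992-119351291 on the plus strand, Trib3 from chr2:152344011-152344310 on the minus strand and Slc7a11 from chr3:50443564-50443863 on the minus strand, where it holds 2 facing matches.
Chac1: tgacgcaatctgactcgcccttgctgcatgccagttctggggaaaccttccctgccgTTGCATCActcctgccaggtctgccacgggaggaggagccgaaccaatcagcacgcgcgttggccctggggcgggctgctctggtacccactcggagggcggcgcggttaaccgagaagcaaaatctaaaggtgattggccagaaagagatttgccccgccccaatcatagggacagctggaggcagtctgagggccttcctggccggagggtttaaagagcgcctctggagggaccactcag
Trib3: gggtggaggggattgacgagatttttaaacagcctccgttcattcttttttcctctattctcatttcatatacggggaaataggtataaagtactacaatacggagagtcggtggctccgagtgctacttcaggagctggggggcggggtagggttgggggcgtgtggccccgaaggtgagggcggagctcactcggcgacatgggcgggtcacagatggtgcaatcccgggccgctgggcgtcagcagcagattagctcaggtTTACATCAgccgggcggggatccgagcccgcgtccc
Slc7a11: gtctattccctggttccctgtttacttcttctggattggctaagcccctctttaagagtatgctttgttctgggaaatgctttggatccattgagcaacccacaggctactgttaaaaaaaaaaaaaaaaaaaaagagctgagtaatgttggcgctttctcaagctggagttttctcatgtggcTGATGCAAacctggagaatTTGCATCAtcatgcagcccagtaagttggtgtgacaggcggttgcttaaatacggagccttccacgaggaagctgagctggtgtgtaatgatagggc

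Chac1, the enzyme that degrades glutathione and a marker of ATF4 activity, read 3.89 and 3.81 in WT dish, 1.75 and 1.69 in Keap1 null dish, 0.069 and -0.53 in WT allograft and 2.04 and 2.03 in Keap1 null allograft. WT dish was the highest group and WT allograft the lowest, with both null groups between them and close together. The null line was 4.37-fold lower in dish and 4.81-fold higher in allograft, for an interaction of 4.39 ± 0.27 (adjusted p = 0.000237). Trib3, a pseudokinase induced by ATF4, read 3.00 and 3.05 in WT dish, 1.30 and 1.31 in Keap1 null dish, 0.67 and 0.049 in WT allograft and 1.78 and 1.85 in Keap1 null allograft. The order of its groups was the same (interaction 3.18 ± 0.28).

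Nupr1, a stress-induced chromatin protein, read 2.33 and 2.13 in WT dish, 1.34 and 1.21 in Keap1 null dish, 2.28 and 2.30 in WT allograft and 4.71 and 4.70 in Keap1 null allograft. Here WT differed by 0.064 between settings and the null allografts were high (interaction 3.37 ± 0.15). For Fgf21, the stress hormone, the ratio of null to WT was at least 17.4-fold larger in allograft than in dish. Atf4 itself had an interaction of 1.76 ± 0.14 and its partner Ddit3 (CHOP) 1.79 ± 0.17. Asparagine synthetase Asns (2.50 ± 0.24), the serine synthesis enzymes Psat1 (2.49 ± 0.14) and Psph (2.26 ± 0.12), and Cth, which makes cysteine from cystathionine (2.79 ± 0.21), were all higher.

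Aminoacyl-tRNA synthetases, which charge tRNAs and are partly under ATF4 control, had the same pattern on a smaller scale. Of 13 members including the tRNA exporter Xpot, 12 were higher and Wars alone was not called, with a median of 1.12. The median difference between the lines was -0.51 in dish and 0.76 in allograft. Cars, the cysteinyl-tRNA synthetase, read 3.54 and 3.30 in WT dish, 2.55 and 2.48 in Keap1 null dish, 2.05 and 1.80 in WT allograft and 3.00 and 2.88 in Keap1 null allograft. It led the list with 1.92 ± 0.19 (adjusted p = 0.000951). Yars (1.43 ± 0.12), Nars (1.31 ± 0.24) and Tars (1.24 ± 0.15) came next. On the unscaled intensities 2 of the 13 were called higher, and the median was 0.76.

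**Figure D3:**
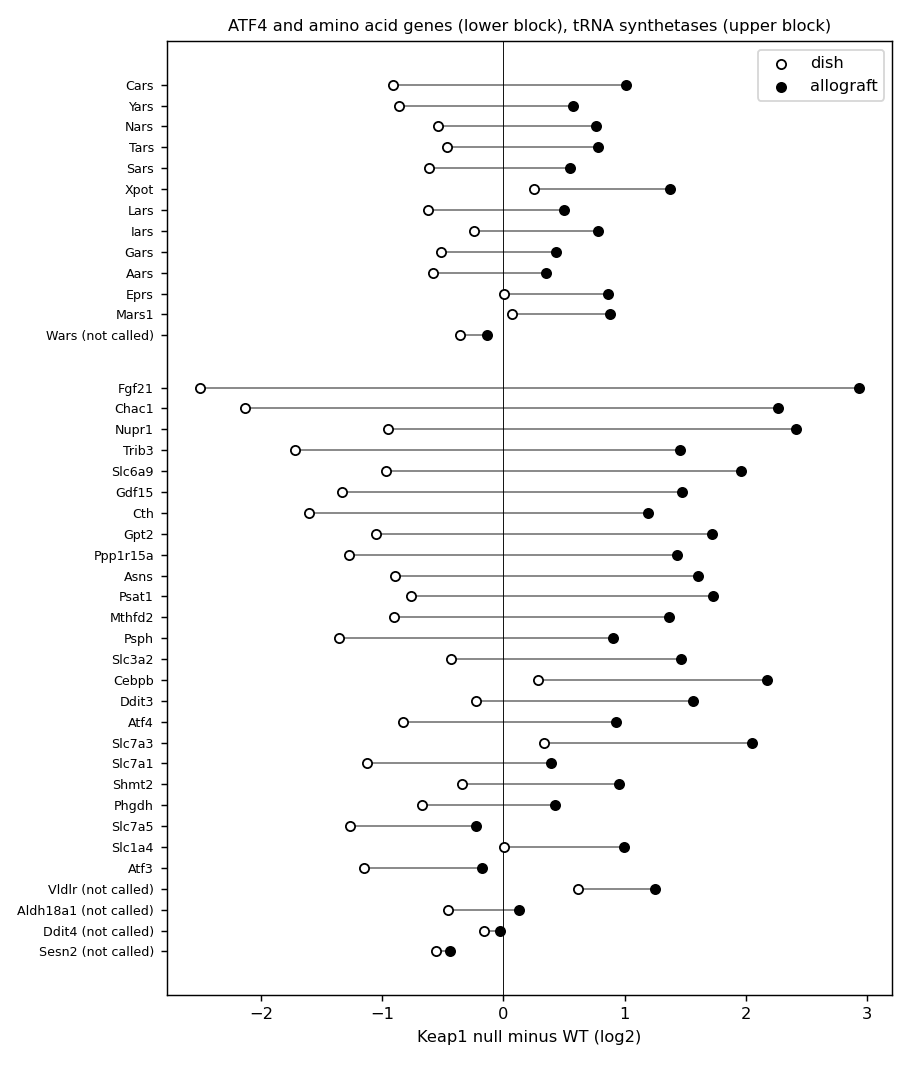
Difference between the lines (Keap1 null minus WT, log2) in dish (open points) and in allograft (filled points) for each dish-detected ATF4 and amino acid gene (lower block, 28 genes) and tRNA synthetase gene (upper block, 13 genes). In most rows the open point lies left of 0 and the filled point right of it, with list medians of -0.90 and 1.40 for the ATF4 list.

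Hypoxia and glycolysis genes were mostly higher. Of 34 members, 22 were higher, 3 lower and 9 not called, with a median of 1.04, and a median difference between the lines of -0.27 in dish and 0.63 in allograft. The 3 lower ones were Adm (-1.36 ± 0.32), Egln3 (-1.09 ± 0.18) and Pfkfb4 (-0.51 ± 0.14), and leaving out either Keap1 null dish array, or WT allograft replicate 1, gave 1 lower member. Stc2, stanniocalcin 2, read -0.80 and -0.89 in WT dish, 0.27 and 0.14 in Keap1 null dish, -3.53 and -3.79 in WT allograft and 0.89 and 0.88 in Keap1 null allograft. WT fell with growth by 2.82 and the null line differed by 0.68 (interaction 3.50 ± 0.17). Bnip3, a mitophagy receptor, read 1.68 and 1.56 in WT dish, 1.15 and 1.12 in Keap1 null dish, 1.53 and 0.97 in WT allograft and 2.88 and 3.13 in Keap1 null allograft. The null allografts were its highest group (2.24 ± 0.28). Ero1a, an oxidase of the endoplasmic reticulum, had 2.61 ± 0.17 and Ankrd37 2.09 ± 0.34. Among glycolytic enzymes and transporters, Hk2 (1.50 ± 0.16), Pfkp (1.77 ± 0.15), Ldha (1.39 ± 0.14) and Slc2a1, the glucose transporter GLUT1 (1.22 ± 0.13), were higher, as was the angiogenic factor Vegfa (1.90 ± 0.20). On the unscaled intensities 10 members were higher.

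Immediate early transcription factors split. Of 22, 12 were higher and 3 lower (Btg2, Egr2 and Arc), with a median of 0.66. Nr4a1, an orphan nuclear receptor induced by growth and cyclic AMP signals, read 3.29 and 3.24 in WT dish, 3.33 and 3.21 in Keap1 null dish, 2.12 and 1.99 in WT allograft and 7.19 and 7.01 in Keap1 null allograft. The lines were level in dish and 33-fold apart in allograft (interaction 5.04 ± 0.15, adjusted p = 6.22e-05). Its relative Nr4a2 had 4.29 ± 0.23, Ier3 2.84 ± 0.24 and the factor Klf4 2.66 ± 0.24. Fos (-0.64 ± 0.24, adjusted p = 0.094), Jun (0.089 ± 0.12) and Egr1 (-0.51 ± 0.30) were not called. Among EGF receptor ligands and feedback genes of the ERK pathway, 11 of 21 were higher and 5 lower, with a median of 0.66. On the unscaled intensities 7 immediate early and 6 ERK pathway genes were higher.

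The ligand Areg, amphiregulin, read 1.38 and 1.30 in WT dish, 1.74 and 1.66 in Keap1 null dish, 1.27 and 0.62 in WT allograft and 3.77 and 3.68 in Keap1 null allograft. It was higher in null allografts than in any other group (interaction 2.42 ± 0.30). The phosphatases that switch MAP kinases off followed, Dusp1 with 2.96 ± 0.28 and Dusp4 with 2.71 ± 0.23. The receptor ran the other way: Egfr read -1.47 and -1.41 in WT dish, 0.90 and 0.84 in Keap1 null dish, 1.56 and 1.74 in WT allograft and 1.23 and 1.07 in Keap1 null allograft. WT dish was its low group, and the difference between the lines was 2.31 in dish and -0.50 in allograft (interaction -2.80 ± 0.15). The other 4 lower members were Spry1, Btc, Nrg1 and Dusp6, and 3 members were lower without WT dish replicate 1, WT allograft replicate 1, Keap1 null allograft replicate 1 or either Keap1 null dish array.

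The Areg promoter is shown because it holds the palindrome of the cyclic AMP response element. This motif, TGACGTCA, occurred in the promoters of 5 of 31 immediate early and ERK genes with one in the table (16.1%), in 4.25% of genes with a higher and 2.2% of genes with a lower interaction, and in 2.03% of all genes there. Among all dish-detected genes the share was 3.39%, and among those not called 3.49%. The lists were drawn up as immediate early and ERK genes, so the share of 16.1% does not bear on the interaction. Btg2, which was called lower, also holds the motif. The sequence comes from RefSeq, chr5:91139349-91139648 on the plus strand, with the motif in capitals.
Areg: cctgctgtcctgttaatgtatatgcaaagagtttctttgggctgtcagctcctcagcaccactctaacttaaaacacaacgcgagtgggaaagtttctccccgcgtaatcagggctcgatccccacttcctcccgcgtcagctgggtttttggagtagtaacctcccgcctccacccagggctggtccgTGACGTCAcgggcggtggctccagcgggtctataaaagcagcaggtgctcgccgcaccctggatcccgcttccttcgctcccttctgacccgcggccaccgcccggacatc

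Secreted inflammatory factors showed some of the largest contrasts. Ptgs2 (COX-2), the inducible enzyme of prostaglandin synthesis, read 1.44 and 1.86 in WT dish, 2.13 and 2.23 in Keap1 null dish, -1.30 and -1.15 in WT allograft and 5.12 and 5.25 in Keap1 null allograft. It fell with growth in WT and rose in Keap1 null, and the ratio of the lines was 59.1 times larger in allograft (interaction 5.88 ± 0.22, adjusted p = 8.47e-05). Il11 read -1.54 and -1.67 in WT dish, -0.17 and -0.30 in Keap1 null dish, -1.65 and -2.24 in WT allograft and 4.53 and 4.35 in Keap1 null allograft. Null allografts were far above the other 3 groups (5.02 ± 0.29). Il6 read -5.11 and -4.95 in WT dish, -6.18 and -6.21 in Keap1 null dish, -2.91 and -2.74 in WT allograft and 0.73 and 0.86 in Keap1 null allograft. It rose with growth in both lines, from a lower start in the null line to a higher level (interaction 4.78 ± 0.16). The alarmin Il33 (2.45 ± 0.23), its receptor Il1rl1 (3.06 ± 0.15), Ptgs1 (3.66 ± 0.15) and Ptges (1.84 ± 0.19) were also higher.

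Several chemokines that draw in monocytes and stromal cells were lower. Cxcl12 read 1.84 and 1.74 in WT dish, 2.48 and 2.34 in Keap1 null dish, 3.16 and 3.21 in WT allograft and -0.66 and -0.45 in Keap1 null allograft. The null allografts lay below all other arrays (interaction -4.36 ± 0.16), and Ccl2 had -3.45 ± 0.19, Ccl7 -1.73 ± 0.18 and Csf1, the macrophage growth factor, -1.37 ± 0.24. Over the list of 18, 9 were higher and 6 lower, with a median of 0.67. Macrophage markers, as a summed signal in units of the array's 75th percentile, were 128 to 144 on WT allograft arrays and 33.9 to 34.8 on null allograft arrays, against 1.84 to 2.80 on dish arrays, and their part in these chemokine values was not tested.

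The interferon response genes that were called were lower. Of 26 dish-detected members, 21 were lower and none higher, with 5 not called (Cxcl10, Rsad2, Rtp4, Oasl1 and Oas1a), and the median was -1.52. Without Keap1 null dish replicate 2 limma called 1 member higher. The median growth difference was 1.95 in WT and 0.64 in Keap1 null, and the median difference between the lines was -0.68 in dish and -2.44 in allograft. Gbp2, a guanylate-binding protein induced by interferon gamma, read -4.94 and -4.62 in WT dish, -3.51 and -3.52 in Keap1 null dish, 0.62 and 1.10 in WT allograft and -2.31 and -2.11 in Keap1 null allograft. WT allografts were the highest group and the interaction was -4.33 ± 0.27 (adjusted p = 0.000246). Ifit3, an antiviral protein, read 0.57 and 0.59 in WT dish, -0.63 and -0.50 in Keap1 null dish, 2.07 and 2.71 in WT allograft and -2.20 and -2.12 in Keap1 null allograft. The null line fell with growth and WT rose (-3.40 ± 0.29). Gbp3 (-2.95 ± 0.31), Parp14 (-2.62 ± 0.23), Isg15 (-2.23 ± 0.20) and Irf7 (-2.25 ± 0.18) were lower.

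The Ifit3 promoter shows the element of this group. The core of the interferon-stimulated response element was searched as 2 copies of GAAA with any 2 bases between them, on either strand. It occurred in 17 of 34 promoters of interferon and MHC class I genes (50%), against 3.99% of all genes and 3.47% of dish-detected genes. The lists were drawn up as interferon response and MHC class I genes, so this share does not bear on the interaction. Among dish-detected genes it occurred in 2.52% of those called higher, 4.3% of those called lower and 3.49% of those not called. Ifit3 holds 2 matches, in capitals, in RefSeq sequence from chr19:34583279-34583578 on the plus strand.
Ifit3: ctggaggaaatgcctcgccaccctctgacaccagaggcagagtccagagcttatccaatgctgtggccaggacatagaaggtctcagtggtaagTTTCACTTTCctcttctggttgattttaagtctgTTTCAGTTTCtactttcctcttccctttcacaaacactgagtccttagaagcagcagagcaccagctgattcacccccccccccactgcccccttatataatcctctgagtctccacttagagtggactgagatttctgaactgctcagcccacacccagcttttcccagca

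MHC class I genes, which present peptides to T cells, were likewise lower in 14 of 15 members, Erap1 not being called, with a median of -1.39. Without either Keap1 null dish array 9 were lower. Tap1, the peptide transporter, read -3.01 and -3.44 in WT dish, -3.47 and -3.42 in Keap1 null dish, 0.40 and 0.32 in WT allograft and -3.08 and -2.93 in Keap1 null allograft. Only WT allografts were high (-3.15 ± 0.22). Its partner tapasin (Tapbp) had -2.08 ± 0.15, and the immunoproteasome subunits Psmb9 and Psmb8 -2.85 ± 0.11 and -2.30 ± 0.19. H2-K1 had -1.42 ± 0.13 and B2m -0.71 ± 0.17. Leukocytes carry these genes at high levels, and their marker lists did not all move the same way. Beside the macrophage sums above, MHC class II and dendritic cell markers summed to 14.1 to 15.3 on WT and 2.82 to 3.20 on null allograft arrays. T, B and NK cell markers summed to 6.79 to 7.61 and 1.54 to 1.70. The neutrophil sum went the other way, at 2.01 to 2.30 on WT and 3.82 to 4.12 on null allograft arrays. Its members differed in direction, with S100a8 and S100a9 among those higher on null allograft arrays and Csf3r and Mmp8 lower. The part of leukocytes in the interferon and MHC class I values was not tested.

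Every p53 target that was called was lower. Of 22 genes including the INK4 inhibitors, 13 were lower and none higher, with a median of -0.88. Fas, the death receptor, read -4.08 and -4.03 in WT dish, -2.22 and -2.26 in Keap1 null dish, 0.077 and 0.21 in WT allograft and -2.34 and -2.33 in Keap1 null allograft. WT allografts stood above the rest, and the genotype ratio went from 3.52-fold higher to 5.59-fold lower in null (interaction -4.30 ± 0.13, adjusted p = 6.22e-05). Trp53inp1, an autophagy and apoptosis regulator, read -0.0032 and 0.085 in WT dish, 1.14 and 1.21 in Keap1 null dish, 2.33 and 2.51 in WT allograft and 0.66 and 0.56 in Keap1 null allograft. It turned sign too (-2.94 ± 0.15). Ccng1 (-2.60 ± 0.15), Eda2r (-2.20 ± 0.18), Sesn1 (-2.09 ± 0.14) and Mdm2, the p53 ubiquitin ligase (-1.03 ± 0.16), were lower. Cdkn1a (p21) had -0.52 ± 0.24 and was not called (adjusted p = 0.156). Fas is also carried by leukocytes. In null allografts the macrophage, MHC class II and T, B and NK cell marker sums were lower and the neutrophil sum higher. Members of the neutrophil list differed in direction. The part of leukocytes in the Fas values was not tested.

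Most cell cycle and replication genes were not called. Of 30, 10 were higher, 1 lower (Ccnd2, -0.92 ± 0.13) and 19 not called. The calls were 36.7% of the list, against 33% of all dish-detected targets called and 16.3% called higher. The list median was 0.30, which became -0.054 on the unscaled intensities. Ccnb1, cyclin B1, read 3.09 and 2.79 in WT dish, 2.80 and 2.57 in Keap1 null dish, 1.55 and 1.31 in WT allograft and 2.63 and 2.31 in Keap1 null allograft. It fell with growth in WT by 1.51 and differed by -0.22 in the null line (1.30 ± 0.25). The phosphatase Cdc25a had 1.08 ± 0.24 and the mitotic kinase Aurka 0.86 ± 0.20. Both calls depended on single arrays: the adjusted p of Cdc25a was 0.0608 without Keap1 null dish replicate 1, and that of Aurka 0.068 without replicate 2 of that group. The number higher was 2 to 6 when 1 array was left out, lowest without either Keap1 null dish array, 3 under quantile normalization and 0 on the unscaled intensities.

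Extracellular matrix genes were higher in allograft than in dish in both lines, by a median of 2.07 in WT and 1.13 in Keap1 null, and the interaction was lower in 16 of 27 members and higher in 3 (Col1a1, Thbs2 and Thbs1), with a median of -0.91. Biglycan (Bgn), a proteoglycan of the matrix, read -1.77 and -2.01 in WT dish, 0.43 and 0.47 in Keap1 null dish, 1.84 and 1.66 in WT allograft and -0.97 and -0.30 in Keap1 null allograft. It turned sign, 5.07-fold higher in null in dish and 5.22-fold lower in allograft (interaction -4.73 ± 0.32). Col3a1, type III collagen, read 0.086 and 0.13 in WT dish, 3.04 and 2.94 in Keap1 null dish, 6.81 and 6.90 in WT allograft and 5.66 and 5.89 in Keap1 null allograft. WT dish was far below the rest (-3.95 ± 0.16). Periostin (Postn), induced in tumour stroma, read -5.44 and -5.50 in WT dish, -4.60 and -4.52 in Keap1 null dish, 5.14 and 5.58 in WT allograft and 1.39 and 2.17 in Keap1 null allograft. The dish groups were both low and WT allografts highest (-4.49 ± 0.39). Lumican (Lum), below background in WT dish, gave a ratio at least 6.42-fold smaller in allograft.

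The 2 chains of type I collagen, which assemble into 1 molecule, had interactions of opposite sign. Col1a1 differed between the lines by -1.33 in dish and -0.23 in allograft (1.10 ± 0.15, adjusted p = 0.00329), and Col1a2 by 0.26 and -0.94 (-1.20 ± 0.22, adjusted p = 0.00887). This pair was singled out after its values had been seen. Host fibroblasts carry these genes too, and the fibroblast markers summed to 784 to 820 on WT and 940 to 999 on null allograft arrays. This sum is of unlogged signal, and its members differed in direction. S100a4 read 7.22 and 7.26 on WT and 8.43 and 8.46 on null allograft arrays, and Dcn 5.50 and 5.47 against 7.47 and 7.45. Pdgfra, Cspg4, Ddr2 and Prrx1 were also higher on null allograft arrays. Col1a1, Col1a2, Fn1, Thy1, Postn, Lum, Pdgfrb, Rgs5 and Fap were lower there. The part of host fibroblasts in the matrix values was not tested.

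Contractile genes were lower in 7 of 14 and higher in none, with a median of -0.84. Myl9, the regulatory light chain of smooth muscle myosin, read -3.03 and -2.93 in WT dish, -0.011 and -0.10 in Keap1 null dish, 2.68 and 2.84 in WT allograft and -0.45 and -0.12 in Keap1 null allograft. It rose by 5.74 with growth in WT and differed by -0.23 in Keap1 null (interaction -5.97 ± 0.19, adjusted p = 6.55e-05). Smtn (-1.59 ± 0.18), Cnn2 (-1.33 ± 0.20) and the myosin kinase Mylk (-1.11 ± 0.20) were lower, and Acta2 (smooth muscle actin) was not called (-0.42 ± 0.26, adjusted p = 0.287).

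Of 17 TGF-beta and YAP responsive genes, 5 were higher and 7 lower, with a median of -0.32. Inhba, the activin A subunit, read 3.31 and 3.19 in WT dish, 3.35 and 3.25 in Keap1 null dish, 2.97 and 2.76 in WT allograft and 6.12 and 6.10 in Keap1 null allograft. Null allografts alone were high (3.19 ± 0.16). Ankrd1, a YAP target, read 5.33 and 5.33 in WT dish, 4.07 and 4.14 in Keap1 null dish, 3.84 and 3.83 in WT allograft and -0.031 and -0.86 in Keap1 null allograft. It was lowest in null allografts (-3.05 ± 0.36). Tgfb3 had -1.91 ± 0.16. The higher count was 3 without Keap1 null dish replicate 1 and on the unscaled intensities. The median was -0.19 without WT dish replicate 1 or Keap1 null allograft replicate 1, -0.16 with median scaling, -0.17 over the mean of each gene's probes and -0.67 without scaling.

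Matrix proteases and their inhibitors went both ways, with 6 of 18 higher, 6 lower and a median of 0.12. The median became -0.27 under quantile normalization and -0.23 on the unscaled intensities. With 1 array left out it was 0.020 to 0.18, lowest without Keap1 null allograft replicate 1. Adamts1, a secreted metalloprotease, read 1.50 and 1.48 in WT dish, -0.74 and -0.94 in Keap1 null dish, 0.62 and 0.47 in WT allograft and 3.67 and 3.51 in Keap1 null allograft. The null line was 5.03-fold lower in dish and 8.25-fold higher in allograft (interaction 5.37 ± 0.16, adjusted p = 6.22e-05). Stromelysin Mmp3 read -1.35 and -1.32 in WT dish, 4.22 and 4.24 in Keap1 null dish, 4.09 and 4.43 in WT allograft and 5.52 and 5.82 in Keap1 null allograft. WT dish alone was low, so a 47.5-fold difference in dish became 2.66-fold (-4.16 ± 0.22). The collagenase Mmp13 (-3.45 ± 0.53) and the inhibitor Timp3 (-2.75 ± 0.17) were lower, and Adamts5 (2.73 ± 0.14) and Plaur, the urokinase receptor (2.62 ± 0.14), higher.

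Of 18 cytosolic chaperones, 7 were higher and 1 lower (Dnajb1), or 44.4% called, against 33% of all dish-detected targets. The median was 0.38, and the median growth differences were -1.16 in WT and -0.78 in Keap1 null. Cryab, the small heat shock protein alphaB-crystallin, read -0.48 and -0.60 in WT dish, 1.05 and 0.91 in Keap1 null dish, -1.45 and -1.63 in WT allograft and 3.97 and 3.69 in Keap1 null allograft. The null allografts were highest and the WT allografts lowest (3.85 ± 0.19). Hsph1 had 1.87 ± 0.14, Dnajb4 1.32 ± 0.28 and Hspb1 1.32 ± 0.20. Without Keap1 null dish replicate 1 the adjusted p of Dnajb4 was 0.0561. The 1 lower call was lost whichever array was left out, and on the unscaled intensities 2 were higher and none lower.

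Endoplasmic reticulum chaperones and quality control genes were higher in 10 of 18 and lower in none, with a median of 0.64. Dnajb9 had 1.19 ± 0.22, Dnajc3 0.96 ± 0.16, Herpud1 0.92 ± 0.25 and Hspa5 (BiP) 0.91 ± 0.20. Of 30 proteasome subunits, 9 were higher and none lower (30% called, against 33% of all dish-detected targets called in either direction and 16.3% called higher), with a median of 0.31, led by Psmc6 (0.90 ± 0.12) and Psmd11 (0.85 ± 0.13), with Psmb5 at 0.81 ± 0.15 and Psmc4 at 0.74 ± 0.22. These 2 lists rest on small differences. With 1 array left out, 4 to 9 of the endoplasmic reticulum genes were higher, fewest without Keap1 null dish replicate 2, and 3 to 6 of the proteasome genes, fewest without either Keap1 null dish array. Under quantile normalization 3 of each were higher, on the unscaled intensities none, where the proteasome median was -0.047. With replicate number as a block, 14 proteasome genes were higher. Herpud1 kept its call without WT dish replicate 1 or WT allograft replicate 2 only (adjusted p 0.115 without Keap1 null dish replicate 1), Hspa5 had an adjusted p of 0.0716 without Keap1 null dish replicate 2, and Psmc4 one of 0.14 without the same array.

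Cholesterol genes were higher in 10 of 24 and lower in 1 (Mvk), with a median of 0.46. That was 45.8% called, against 33% of all dish-detected targets. Idi1 had 1.28 ± 0.25 and Cyp51 0.82 ± 0.17, the latter with an adjusted p of 0.0559 without Keap1 null dish replicate 1. With 1 array left out, 5 to 10 were higher, fewest without Keap1 null dish replicate 1, and on the unscaled intensities 2. The 1 lower call remained only without WT dish replicate 1 or Keap1 null allograft replicate 1 among these.

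Genes of body position, mostly Hox factors, were lower in 15 of 27 and higher in 5 (Hoxd11, Hoxa11, Twist1, Hoxa13 and Prrx1), with a median of -1.02. With normexp background correction 12 were lower and 9 higher, and the median was -0.035. Hoxb9, a trunk Hox gene, read 2.86 and 2.83 in WT dish, 2.50 and 2.49 in Keap1 null dish, 1.43 and 1.56 in WT allograft and -2.84 and -3.17 in Keap1 null allograft. It fell with growth by 1.34 in WT and 5.50 in Keap1 null, and the interaction was -4.15 ± 0.18 (adjusted p = 9.84e-05). Hoxb5 (-3.31 ± 0.15) and Hoxc8 (-3.16 ± 0.32) were lower. Pitx1, a hindlimb factor below background in WT dish, had a ratio at least 8.27-fold smaller in allograft than in dish.

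Imprinted growth genes were lower in 7 of 12 and higher in 1 (Peg3, 1.92 ± 0.19), with a median of -2.21. Mest read -3.56 and -3.39 in WT dish, 1.34 and 1.46 in Keap1 null dish, 2.88 and 3.11 in WT allograft and 2.03 and 2.12 in Keap1 null allograft. WT dish alone was low, 29.3-fold below null in dish, and the lines were 1.89-fold apart in allograft the other way (interaction -5.79 ± 0.17). With Dlk1, Igf2 and Meg3, described above, these 4 shared a low level in WT dish and a higher one in Keap1 null dish and in WT allograft. They were named for the size of their interactions, a choice that favours this arrangement, so it is not a trait of the list. Igf2 also passed the dish filter through Keap1 null dish alone. Nnat (-3.65 ± 0.23) and Ndn (-3.12 ± 0.16) were also lower.

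**Figure D4:**
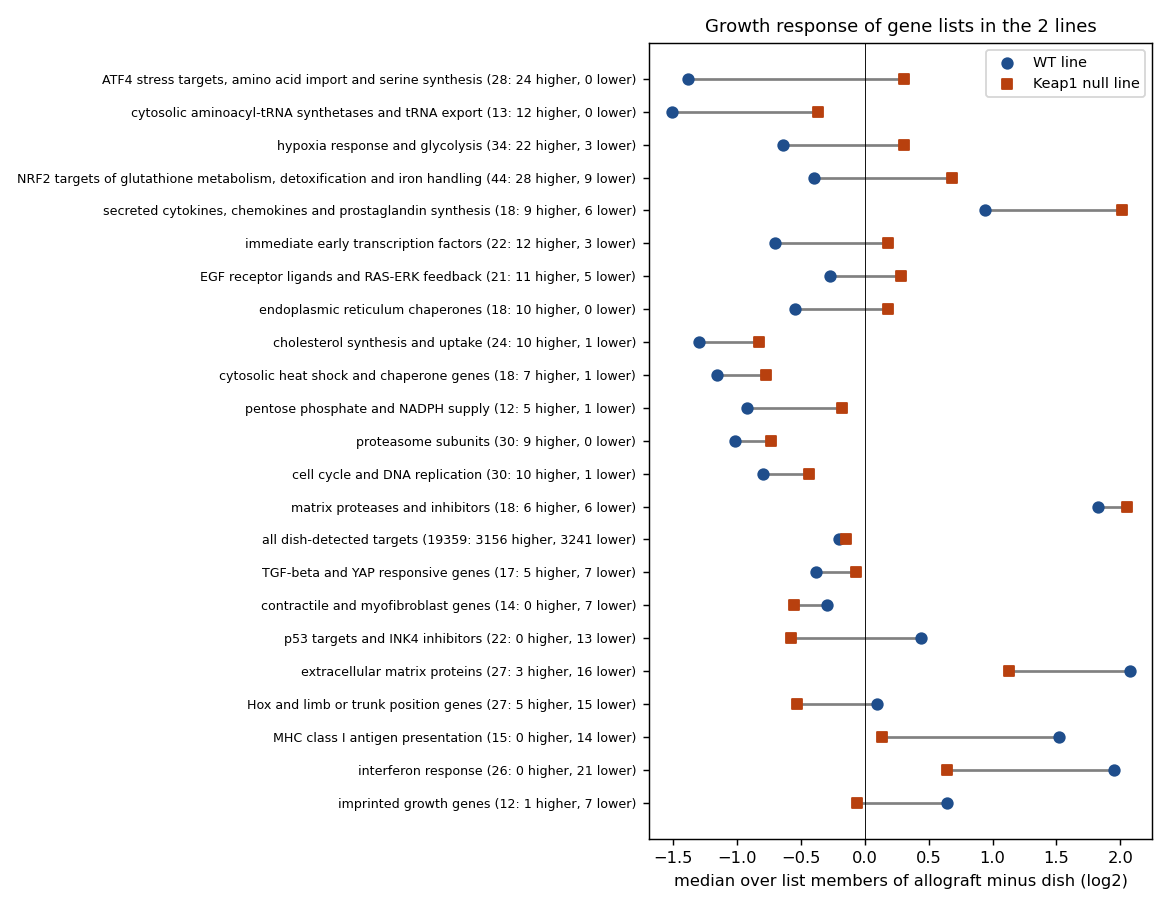
Median change with growth (allograft minus dish, log2) over the dish-detected members of each gene list in the WT line (circles) and the Keap1 null line (squares), with the number of members and of called interactions beside each name. The ATF4 list moved by -1.38 in WT and 0.30 in Keap1 null, and the interferon list by 1.95 and 0.64.

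Markers of cells that the tumours could hold were examined for the whole lists. Of 20 macrophage markers, 19 are on the array and 5 were dish-detected. Of these, Mrc1, C1qb, Csf1r and Fcer1g were lower and Cd14 higher (1.13 ± 0.17). Csf1r, the receptor of the macrophage growth factor, read -5.89 and -5.76 in WT dish, -5.65 and -4.86 in Keap1 null dish, 2.57 and 2.72 in WT allograft and 0.44 and 0.53 in Keap1 null allograft. Both allograft groups were far above both dish groups, and WT allografts above null ones (-2.73 ± 0.36). Mrc1 had -3.13 ± 0.32, C1qb -3.00 ± 0.30 and Fcer1g -2.28 ± 0.19. Among MHC class II and dendritic cell genes, Cd74 (-3.20 ± 0.34), H2-DMa (-2.87 ± 0.21) and H2-DMb1 (-2.10 ± 0.14) were lower and Flt3 higher (3.03 ± 0.27).

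Sums of the other lists are given for allograft arrays, with calls for dish-detected members. Neutrophil markers summed to 2.01 to 2.30 on WT and 3.82 to 4.12 on null arrays, but their members differed in direction. S100a8, an alarmin subunit, gave a ratio at least 8.33-fold larger in allograft than in dish, and the other 2 dish-detected members, Mpo and Ltf, were not called. Csf3r, the G-CSF receptor, was below background in dish and read -2.56 and -2.17 on WT and -4.02 and -3.70 on null allograft arrays, and Mmp8, a collagenase, -2.68 and -2.13 against -4.82 and -4.56. T, B and NK cell markers, whose sums are given above, had 2 of 7 dish-detected members called lower (28.6%, against 16.7% of all dish-detected targets). These were Lck, a T cell kinase (-1.58 ± 0.16), and Gzmb, which was below background on both null dish arrays, so that neither its size nor its direction is bounded. Without Keap1 null allograft replicate 1, 1 member was higher.

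Endothelial markers summed to 33.9 to 37.6 on WT and 29.5 to 32.2 on null arrays, with Cldn5 higher (1.06 ± 0.25; adjusted p 0.0745 without Keap1 null dish replicate 2) and Kdr lower (-0.75 ± 0.15; 0.0578 without the same array). Of the 9 dish-detected endothelial markers 22.2% were called, against 33% of all dish-detected targets. Adipocyte markers summed to 18.7 and 6.36 on the 2 WT arrays and to 16.0 and 19.1 on the null ones. Pparg was the 1 of 4 adipocyte genes called (25%), with 0.73 ± 0.15. That call was lost without either Keap1 null dish array, and without WT allograft replicate 1, the higher of the WT arrays, 3 of 4 were called higher.

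Of 16 dish-detected red cell, skeletal muscle and keratinocyte markers limma called 0, and 2 had an unadjusted p under 0.05, Hba-a1 (1.34 ± 0.41) and Perp (-0.61 ± 0.22). Median interactions were 0.73 over 2 red cell, 1.03 over 8 muscle and 1.46 over 6 keratinocyte members. Muscle values went from -0.42 for Myoz1 to 2.01 for Tnnc2, with Acta1 at 0.067 ± 1.17, and keratinocyte values from -2.50 for Lor to 2.67 for Krt5. With replicate number as a block, 1 muscle marker was called higher and 1 keratinocyte marker, Perp, lower. Leaving out 1 array also gave calls: 1 red cell marker higher without WT allograft replicate 1 and 2 without Keap1 null allograft replicate 1, 1 muscle marker lower without WT allograft replicate 2 and 1 higher without Keap1 null allograft replicate 2, and 2 keratinocyte markers lower without Keap1 null allograft replicate 1 and 3 higher without replicate 2 of that group. Single arrays stood apart: muscle sums were 5.49 and 1.52 on the WT and 24.8 and 4.78 on the null allograft arrays, and keratinocyte sums 1.70 and 1.62 on the WT and 6.23 and 2.81 on the null ones, replicate 1 first.

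The fibroblast list, which the MEFs and host stroma share, had 8 of 15 dish-detected members lower and 4 higher (Ddr2, Col1a1, Cspg4 and Prrx1), with a median of -1.20. Pdgfrb, a receptor of pericytes and fibroblasts, read -1.98 and -2.04 in WT dish, 0.36 and 0.25 in Keap1 null dish, 2.89 and 3.02 in WT allograft and 1.59 and 1.59 in Keap1 null allograft. It rose by 4.97 with growth in WT and by 1.29 in Keap1 null (-3.68 ± 0.13). Thy1 had -3.28 ± 0.13, from a difference of 3.07 in dish to -0.20 in allograft, and Vim, present at a similar level on all arrays, was not called (0.072 ± 0.16).

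**Figure D5:**
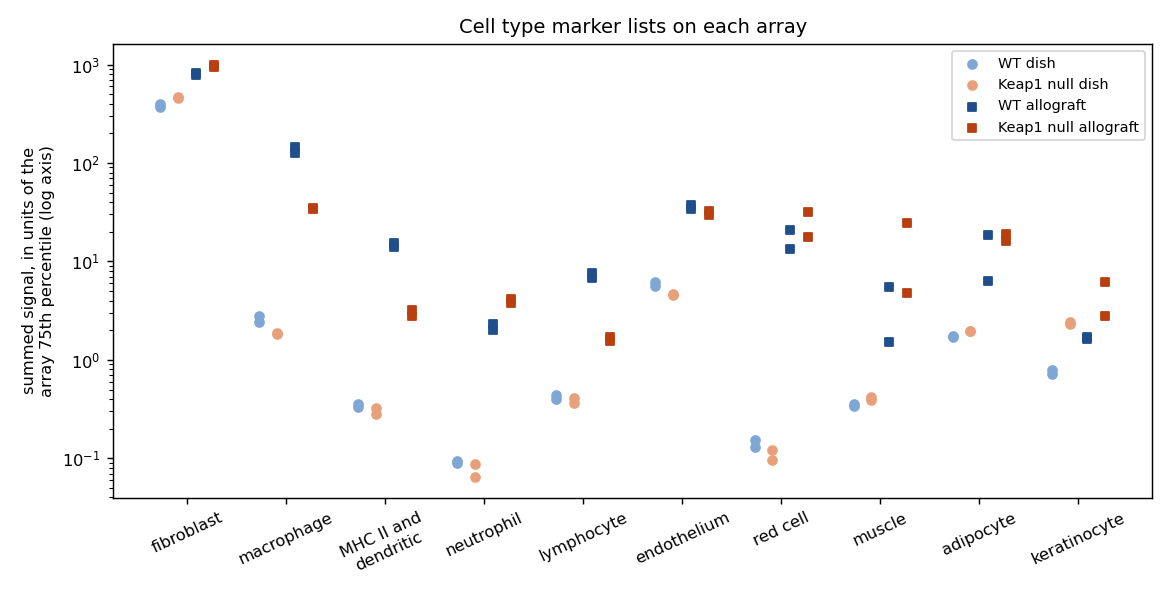
Summed signal of each cell type marker list on each array, in units of the array's 75th percentile on a log axis, with 2 arrays per group. Macrophage sums are 128 to 144 on WT allograft and 33.9 to 34.8 on null allograft arrays. Fibroblast sums are highest on null allograft arrays, at 940 to 999, although the members of this list differed in direction.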

How the data were processed

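Per the file headers, the authors' deposited scanner output consists of intensities from Agilent Feature Extraction (version 10.7.3.1), with background and a spatial trend subtracted and no scaling between arrays. The deposited value table holds the same intensities, within 0.496% of the processed signal. Per array, log2 of the processed intensity minus its 75th percentile was taken with R 4.3.3, without control spots and outlier spots.

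A probe entered the test if any group had it well above background on both of its arrays, which left 30358 of 41174. Array accessions were matched, without versions, to the RefSeq gene table of GRCm38.p6 for names only, since the headers name the older build mm9, and 26690 probes received a symbol. Each gene is read from the brightest of its tested probes, by the mean of all arrays. Of 5725 targets with several tested probes, 47 had probes called in opposite directions.

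One limma 3.58.1 fit of 4 group means (4 residual and 1.83 prior degrees of freedom) gave every comparison, with Benjamini-Hochberg adjustment over all 22922 targets and a threshold of 0.05. The number of arrays, 2 per group, limits the precision. An interaction is a difference of log2 values, and a fold is a ratio of geometric means. Where no array of a group was above background, the dim side of a bound is, on each array, the probe's own signal or the lowest signal counted as well above background, whichever is larger.

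Named genes are Keap1 and Nfe2l2, the 10 largest called interactions each way among symbols above background on all 8 arrays, the 5 largest bounds each way, the 5 largest of turned sign each way, and from each list the called members with the largest interactions, at most 4, or the brightest member where none was called. Genes without a symbol are counted only, and a few genes that this rule or a list names are not reported here by name. The members and lists were chosen with earlier results of these data known. Promoters came from the RefSeq table of GRCm38.p6.

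Arrays with the same replicate number deviated together from their group means, with correlations of 0.36 to 0.62 over all 6 pairs of groups, and they share a slide, so the numbers pair the arrays. The main fit took no account of this pairing. Its counts, standard errors and genes given as not called are those of the fit without a block. The alternatives were quantile, median and no scaling, normexp background correction (offset 50, on the median spot signal, because the files used here hold no mean signal), other filters and probe rules, a variance trend, the replicate block and each array left out.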

Additional observations from a re-analysis of the deposited data

Results flagged for a closer look

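The difference between the lines was itself tested for a change between dish and allograft, and 6397 dish-detected targets passed, 33% of those tested by limma at a Benjamini-Hochberg adjusted p under 0.05. Of these, 273 had differences of at least 2-fold in both settings with opposite sign.

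Outside the dish-detected targets, 3563 tested targets were not well above background on both arrays of either dish group. Of these, 1133 were called (31.8%), 474 higher and 659 lower. Their source, host or grafted cells, was not tested.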

How the results depend on the processing

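The numbers of interaction calls ranged from 4250 to 5632 (higher 1953 to 2581, lower 2297 to 3051) when 1 array was left out, where the lone array of its group was assumed to vary like the others, and turned-sign calls from 253 to 302, allograft-only calls from 1732 to 2102 and dish-only calls from 555 to 634. Leaving out Keap1 null dish replicate 1 gave the fewest calls in total, the fewest higher and the fewest lower. The fewest turned-sign calls came without WT allograft replicate 2, and the fewest allograft-only calls without Keap1 null dish replicate 2. Without scaling, 963 were higher. With normexp background correction 101 calls turned sign and 361 were dish-only. With probes above background on all 8 arrays 176 turned sign. The cause of these shifts was not tested, beyond fewer arrays when 1 was left out and fewer targets under the stricter filter. With replicate number as a block, which here is the slide as a block, 8101 targets were called (4233 higher, 3868 lower), and of the list counts those of higher proteasome genes (14), higher muscle markers (1) and lower keratinocyte markers (1) moved by over 1.5 times. Of the named genes, Perp gained a call and none lost one. Of 132 named genes called, 106 kept the call under every alternative run.

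Some small list medians changed sign, the cause not being tested: cell cycle -0.054 and proteasome -0.047 without scaling; proteases -0.27 (quantile normalization), -0.23 (no scaling) and -0.0065 (slide 1 alone). The endothelial median was -0.071 (quantile normalization), -0.22 (no scaling) and -0.0048 to 0.28 with 1 array left out (lowest without WT dish replicate 1), and the adipocyte median -0.22 to 0.83 with 1 array left out (lowest without WT allograft replicate 2) and -0.25 (slide 1 alone). The lymphocyte median, -0.0024 as reported, was 0.15 (median scaling), 0.22 (normexp), 0.012 (both stricter detection filters), 0.0011 (without WT dish replicate 1), 0.037 (without WT allograft replicate 2), 0.61 (without Keap1 null allograft replicate 1) and 0.33 (slide 2 alone). Acta1, which was not called, went to -0.29 (no scaling), -0.20 (without Keap1 null dish replicate 1), -0.68 (without WT allograft replicate 2) and -1.10 (without Keap1 null allograft replicate 1), up to 1.23 (without replicate 2 of that group).

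With 2 arrays per group, signal near background limits the dimmest genes, which have bounds only. Genotype, line, injected cell number and array position go together in the allograft groups, and host cells were not separated from grafted ones.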
